A study of Mus musculus with 8 samples.

Results

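Rn45s is the name of a copy of the ribosomal RNA precursor gene on mouse chromosome 17, and SRSF3-GFP cDNAs were examined along it. The copy was selected on its measured level, since its window ranked second in the tracks, and on a known difference between the replicates, so both are given below as descriptions. It was taken as the plus strand of mm9 chromosome 17 from 39979900 to 39985800. It is 1 gene, with 2092 of the 769652 positions listed for replicate 1 and 3024 of the 2093525 positions listed for replicate 2. A track that sums 5 libraries, the replicates and 3 more, listed 4107 positions in this range of 3846902.

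The series holds 8 mouse samples, of which the 2 iCLIP replicates of SRSF3 in neonatal cardiomyocytes are used here and the 6 hearts are not analysed here. Both replicates came from C57BL/6 pups at P0 or P1, whose plated heart cells received 15 µg of SRSF3-GFP modRNA with a Lipofectamine reagent and, 48 h later, UV light (100 mJ, 254 nm). Fragments of 80 to 200 nt made with RNase I were recovered with a goat antibody to GFP. The bound protein was therefore a tagged copy made from transfected RNA, in cells that also carry their own SRSF3. No control immunoprecipitation was used here, RNA abundance is not given by the tracks, and the cell type was not checked against marker genes because no annotation of mm9 was used. Separate cultures are not stated for the replicates, and the spread between them may be technical.

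The ribosomal RNA precursor is transcribed in the nucleolus by RNA polymerase I. It holds the small and large ribosomal RNAs between external and internal transcribed spacers, which are cut away and degraded as the ribosome is built. Mature ribosomal RNA makes up most of the RNA of a cell, and the spacers are short-lived. The gene is repeated many times in the genome, and only some copies are placed in an assembly. SRSF3, a small SR protein, takes part in splicing of pre-mRNA and in the export of mRNA to the cytoplasm. iCLIP reads the nucleotide at which reverse transcription stopped next to a crosslinked protein, and each value here is the number of cDNAs at such a nucleotide.

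The tracks carry no gene names, and Rn45s matched 0 entries of the mouse reference tables, so the name rests on the position of the copy and not on an annotation of mm9. On another build, GRCm38, GENCODE M21 lists on chromosome 17 the plus-strand gene Gm26917, whose longest transcript spans 3329 nt, Gm42418 of 1831 nt on the same strand, and an entry of rRNA type, CT010467.1, on the minus strand. RefSeq lists there an 18S pseudogene, Rn18s-rs5, of 1849 nt. No coordinate was carried between builds, and no stretch of the mm9 profile was assigned to a spacer or to a mature RNA. No sequence of the copy is shown because no sequence of mm9 was used.

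Depth set the precision of all values. The 3 further libraries, taken as the sum track minus both replicates and called the other libraries, held 1138453 cDNAs together, replicate 1 held 815414 and replicate 2 held 2253688. Values are given per 1000000 cDNAs of a library (CPM), and intervals are 95% intervals for counting error only. A count of 0 allows up to 2.63 CPM in the other libraries, 3.68 in replicate 1 and 1.33 in replicate 2.

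About 1 in every 100 cDNAs was placed on the copy. The gene is repeated and the handling of reads with several matches is not given. Whether cDNAs from its other copies were also placed here is therefore not known. In the other libraries the chromosome 17 copy held 12912 cDNAs, 1.13% of their total (Wilson interval 1.11% to 1.15%). In replicate 1 it held 6968 cDNAs, 0.855% of the library (0.835% to 0.875%), and in replicate 2 it held 15195, 0.674% (0.664% to 0.685%). The mean of the replicates was 7644 ± 1275 CPM (SD, n = 2), or 1314 ± 219 CPM per kb.

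The signal had sharp ends and a single strand. The first listed position was 39979939 and the last 39985754, a span of 5816 nt. Within 10 kb on either side replicate 1 had no cDNA on either strand, and replicate 2 had 1 before and 1 after the copy, both on the plus strand. Inside the range the minus strand held 2 cDNAs in replicate 1, 1 in replicate 2 and 4 in the sum track, against 6968, 15195 and 35075 on the plus strand.

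Listed positions were deeper here than in the tracks as a whole. The other libraries listed 56.3% of the nucleotides of the span, replicate 1 listed 36.0%, replicate 2 listed 52.0% and the sum track 70.6%. A position held 3.94 cDNAs on average in the other libraries, 3.33 in replicate 1 and 5.03 in replicate 2. Positions with a single cDNA were 48.1% of the copy's positions in replicate 1, against 96.9% over the whole track, and 35.9% in replicate 2, against 95.9%.

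Along the copy, cDNAs per 100 nt were uneven, and the profiles of both replicates and of the sum of the other libraries were broadly alike. The 59 windows ran from 14.1 to 1107 CPM in the other libraries with a median of 130, from 2.45 to 1611 CPM in replicate 1 with a median of 74.8, and from 0.444 to 894 CPM in replicate 2 with a median of 62.6. Across these windows log2(CPM + 1) had a Pearson r of 0.98 between the replicates, 0.93 between the other libraries and replicate 1, and 0.92 between the other libraries and replicate 2. The Spearman values were 0.96, 0.92 and 0.92. These are descriptions over neighbouring windows of 1 RNA, which are not independent and share its sequence and any gaps in mapping.

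**Figure D1:**
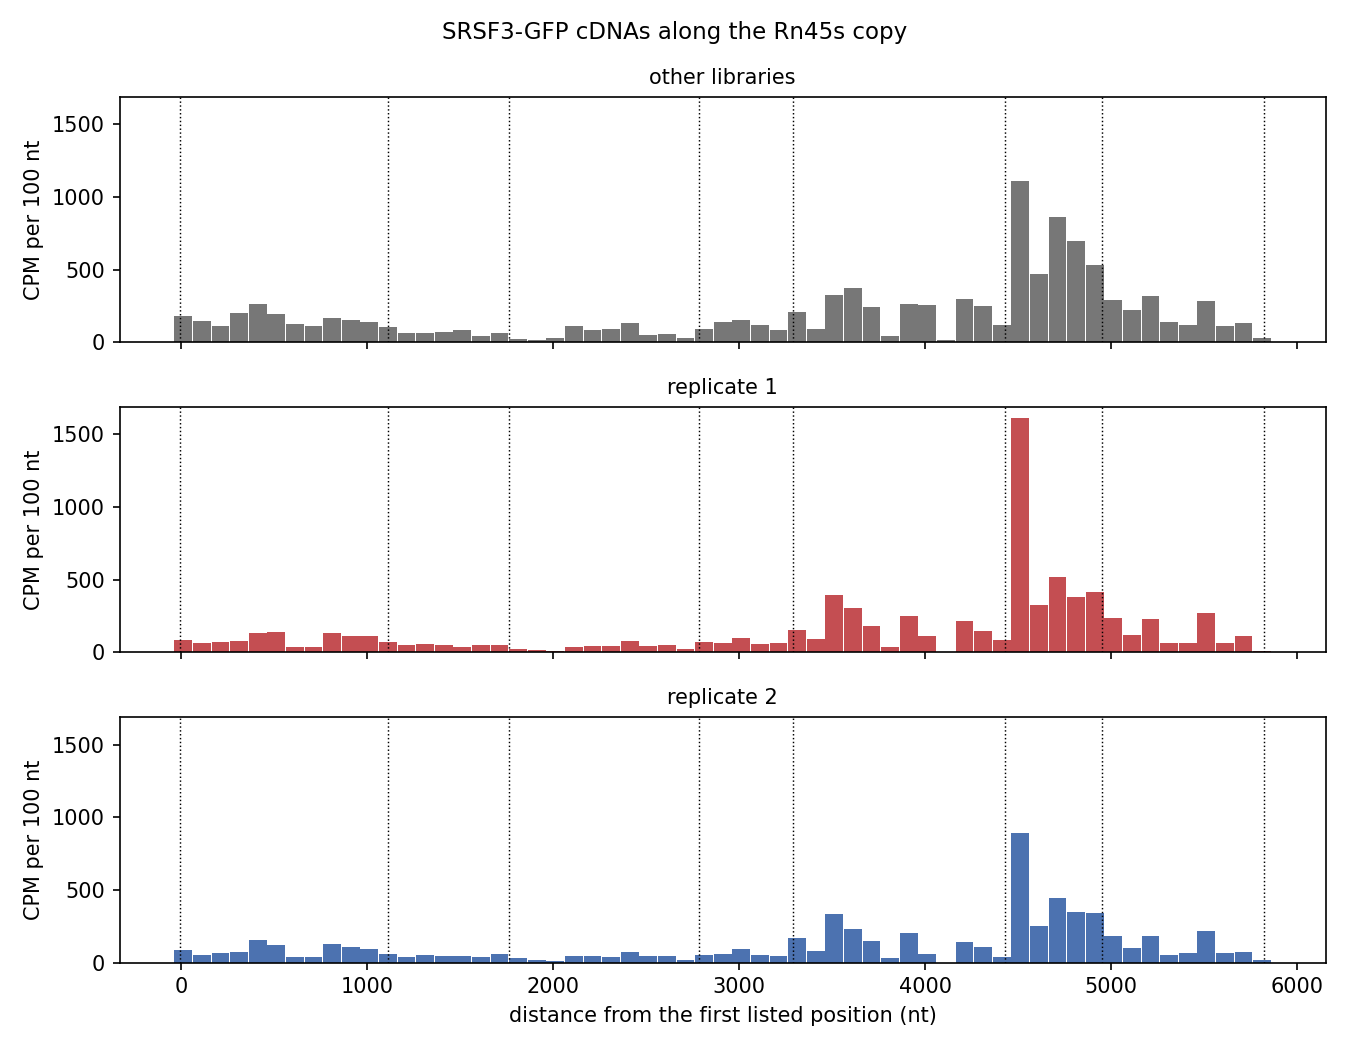
cDNAs per 100 nt window (bars, in CPM) along the Rn45s copy for the other libraries, replicate 1 and replicate 2, with the distance from the first listed position on the horizontal axis and dotted lines at the 8 steps placed on replicate 2. The highest bar is the same window in all 3 panels, at 1107, 1611 and 894 CPM.

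The densest window ran from 39984401 to 39984500. It held 1260 cDNAs in the other libraries, 9.76% of the copy's cDNAs there, against 1314 in replicate 1, 18.9%, and 2016 in replicate 2, 13.3%. It was the highest of the 59 windows in each of the 3, but it took the smallest share in the other libraries. Next came 39984601 to 39984700 with 865 CPM in the other libraries, 519 in replicate 1 and 444 in replicate 2. The windows starting at 39984701, 39984801 and 39983401 followed. They held 695, 533 and 325 CPM in the other libraries, 379, 415 and 399 CPM in replicate 1, and 349, 343 and 336 CPM in replicate 2. Of the 5 densest windows, 4 thus lay between 39984401 and 39984900.

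By the lower replicate, the sparsest window ran from 39984001 to 39984100, shortly before the densest, with 17 cDNAs in the other libraries, 2 in replicate 1 and 1 in replicate 2. In 84 nt of it, from 39984004 to 39984087, the sum track listed no position. The last window, from 39985701, held 32 cDNAs in the other libraries, 7 in replicate 1 and 33 in replicate 2, and the signal ended within it. The other 3 of the 5 sparsest windows lay further upstream, starting at 39981801, 39981901 and 39982601. Their cDNAs were 16, 34 and 38 in the other libraries, 14, 9 and 20 in replicate 1, and 34, 27 and 38 in replicate 2.

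Steps in the profile were placed on replicate 2 alone, by the log2 ratio of cDNAs + 1 in the 300 nt after a point to those in the 300 nt before it, and were then read in the libraries that had not placed them. There were 8 steps, the start and the end of the copy and 6 inside it. The largest inside step was at 39984370, with log2 jumps of 2.02 in the other libraries, 2.68 in replicate 1 and 2.58 in replicate 2. At 39983230 the jumps were 1.19, 1.95 and 2.04, and at 39982720 they were 1.45, 1.07 and 1.09. Downward steps stood at 39981050 (-1.06, -1.17 and -1.38), at 39981700 (-1.43, -1.46 and -1.35) and at 39984890 (-1.39, -1.29 and -1.39). Every step thus kept its direction in replicate 1 and in the other libraries.

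Steps placed on the other libraries or on replicate 1 fell mostly on the same points. Of the 8 steps of the other libraries, 4 lay at the same point as a step of replicate 2 or within 30 nt of one inside the copy, 39982000 and 39983370 lay 300 and 140 nt away, and the 2 ends lay 0 and 30 nt away. Replicate 1 gave 9 steps, of which 39982010 and 39985120 lay 310 and 230 nt from the nearest step of replicate 2 and the other 7 within 20 nt. The steps at 39982000 and 39982010 were upward, with log2 jumps of 2.03 in the other libraries and 1.46 in replicate 1. The step of replicate 2 nearest to them, at 39981700, was downward, so they had no counterpart among its listed steps. Replicate 2 nevertheless rose there as well. Its windows starting at 39981701, 39981801 and 39981901 held 66, 34 and 27 cDNAs. Those starting at 39982001, 39982101 and 39982201 held 102, 98 and 91. Only the largest jump within 300 nt is listed as a step, so a smaller jump that near is left out. The other libraries placed no step at 39981700, and replicate 1 placed none at 39984890, although both fell at these points by the jumps given above.

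The steps divide the copy into a sparse 5′ stretch and a dense 3′ stretch. Up to the step at 39983230, which lies 3292 nt from the first listed position, the copy held 1081 CPM per kb in the other libraries, 655 in replicate 1 and 599 in replicate 2. Beyond it, over 2524 nt, it held 3084, 2531 and 1890 CPM per kb. The 5′ stretch had 31.4% of the copy's cDNAs in the other libraries, 25.2% in replicate 1 and 29.2% in replicate 2. This division was chosen after the profile was seen. The length of the 5′ stretch stands beside the 3329 nt of Gm26917 on GRCm38 as a comparison of lengths only.

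Density varied further within both stretches. In the 5′ stretch the segment up to 39981050 held 1663 CPM per kb in the other libraries, 941 in replicate 1 and 885 in replicate 2, and the segment from 39981701 to 39982720, the sparsest of the copy, held 636, 382 and 366. The segment between them held 680, 526 and 453, and the segment from 39982721 to 39983230 held 1185, 729 and 616. In the 3′ stretch the segment from 39983231 to 39984370 held 2052, 1656 and 1309 CPM per kb. It was followed by the densest segment, 39984371 to 39984890, with 7250, 6394 and 4454 CPM per kb, and by the last one with 1924, 1352 and 1105. The densest segment exceeded the sparsest by 3.51 on the log2 scale in the other libraries and by 3.83 ± 0.32 in the replicates (SD, n = 2), with 4.06 in replicate 1 and 3.61 in replicate 2.

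Long empty stretches interrupted the dense part. Within the span 14 runs of at least 15 nt had no position in the sum track. Of these, 4 were 74 to 86 nt long and the others at most 33 nt. The 4 long runs were 39983296 to 39983369, 39983706 to 39983781, 39983847 to 39983932 and 39984004 to 39984087, all between the steps at 39983230 and 39984370. In the 50 nt on either side of the first of them the other libraries held 442 cDNAs, replicate 1 held 325 and replicate 2 held 824, so signal stopped and resumed at its borders. The same sums were 468, 318 and 605 around the second, 524, 257 and 560 around the third, and 345, 188 and 276 around the last. The part of mapping in these gaps was not tested.

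Single nucleotides were read by the rule of the 10 highest in the lower replicate. Of these 10 positions 8 lay in the densest window, and the other two were 39984635 and 39985423. Together they held 2.56% of the copy's cDNAs in the other libraries, 8.60% in replicate 1 and 5.80% in replicate 2. Position 39984421 came first, with 32 cDNAs in the other libraries, 65 in replicate 1 and 110 in replicate 2. Position 39984422 held 60, 83 and 105 cDNAs, and 39984456 held 41, 89 and 95.

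In the densest window the cDNAs formed 3 clusters of 11 to 13 nt, with bounds read from the profile. They ran from 39984414 to 39984426, from 39984432 to 39984442 and from 39984450 to 39984460. The clusters together held 64.4% of the window's cDNAs in the other libraries, 84.3% in replicate 1 and 80.2% in replicate 2. The top of the third cluster was 39984456 in all 3, that of the second was 39984437 in the other libraries and 39984436 in both replicates, and that of the first was 39984422 in the other libraries and replicate 1 and 39984421 in replicate 2. The sites were thus placed alike to within 1 nt, and the rest of the window held a larger share in the other libraries.

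**Figure D2:**
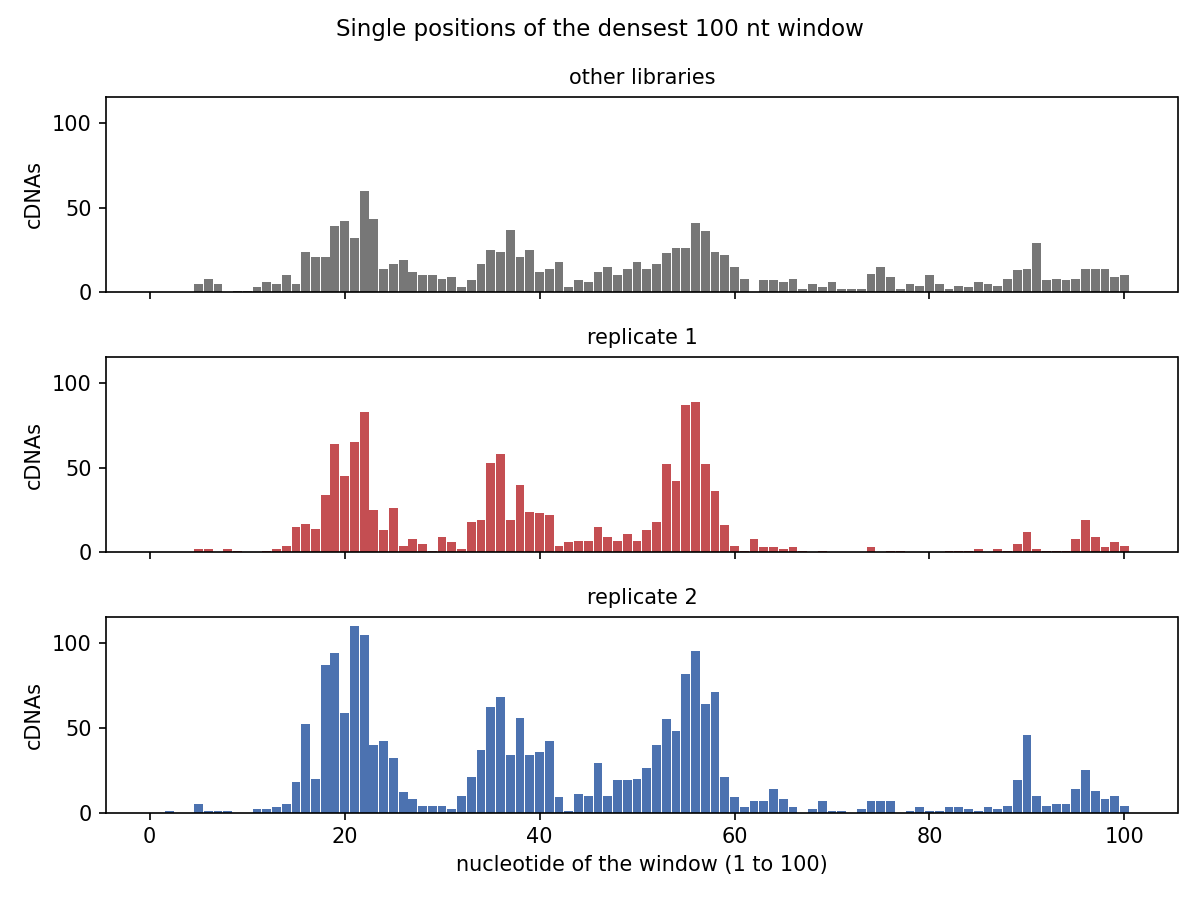
cDNAs at each nucleotide (bars) of the window from 39984401 to 39984500, in order along the plus strand, for the other libraries, replicate 1 and replicate 2. Each panel shows the same 3 clusters, which hold 64.4%, 84.3% and 80.2% of the window's cDNAs.

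Positions of replicate 1 recurred in replicate 2 more often than the density of its listing. Of the 2092 positions of replicate 1, 1717 were listed in replicate 2, 82.1% (Wilson interval 80.4% to 83.7%), while replicate 2 listed 52.0% of all nucleotides of the span. Positions with 1 cDNA in replicate 1 recurred in 68.3% of cases, those with 2 in 88.9% and those with 3 to 5 in 97.1%. All 166 positions with 6 to 10 cDNAs and all 103 with more recurred. Read 1 nt further along the strand, 76.0% of the replicate 1 positions fell on a listed position of replicate 2, and 78.1% when read 1 nt back. At 10 nt the shares were 64.8% and 65.3%, and at offsets of 11 to 50 nt they lay between 53.7% and 65.2%. The peak at the same nucleotide therefore stood on a broad rise around it.

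Replicate 1 gave a larger share of its cDNAs to the copy than replicate 2. Its share was higher by 0.34 on the log2 scale (exact interval 0.30 to 0.38), a known difference that helped to choose the copy and is given with no test. The excess was not even along the copy. It was 0.13 (0.05 to 0.21) in the 5′ stretch, 0.42 (0.37 to 0.47) in the 3′ stretch and 0.85 (0.75 to 0.95) in the densest window. Without that window it was 0.30 (0.25 to 0.36) in the 3′ stretch and 0.25 (0.20 to 0.29) over the whole copy. Of the 33 windows before the step at 39983230, 25 were higher in replicate 1, with 1 interval above 0. Of the 25 windows after it, 22 were higher, with 16 intervals above 0. Windows after the step had medians of 183 CPM in replicate 1 and 142 in replicate 2, against 61.3 and 48.8 before it. Their intervals therefore tended to be narrower, and the counts of intervals above 0 depend on this as well as on the ratios. None of the 59 windows had an interval below 0. Among windows with at least 50 cDNAs in both replicates together, 46 of 55 were higher in replicate 1 in the copy, with a median of 0.22, and 428 of 633 over the genome, 67.6%, with a median of 0.15.

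Whether the shape of the profile differed was tested apart from the overall shift, by the share of each 100 nt window in its 10 kb window. Of 564 windows of the genome with enough cDNAs, 5 differed between the replicates at a 5% false discovery rate, or 0.887% of those tested, and 0.355% were higher in replicate 1 (two-sided Fisher's exact test, Benjamini-Hochberg adjustment over all windows). In the copy 54 windows were tested and 1 passed, the densest. Its log2 odds, replicate 1 over replicate 2, were 0.60 (adjusted p = 2.12e-23, Fisher's exact test). An unadjusted p under 0.05 was found for 9 of the 54 windows of the copy, against 64 of the 564 windows of the genome. With a minimum of 100 cDNAs in place of 50, 4 of 52 windows of the copy passed, against 7.72% of 272 windows of the genome. The test compares the 2 libraries and covers counting error only, and since shares within a window add up, a strong window that is higher lowers the shares of its neighbours. The first window of the copy could not be tested because a border of the 10 kb grid separates it from the rest.

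**Figure D3:**
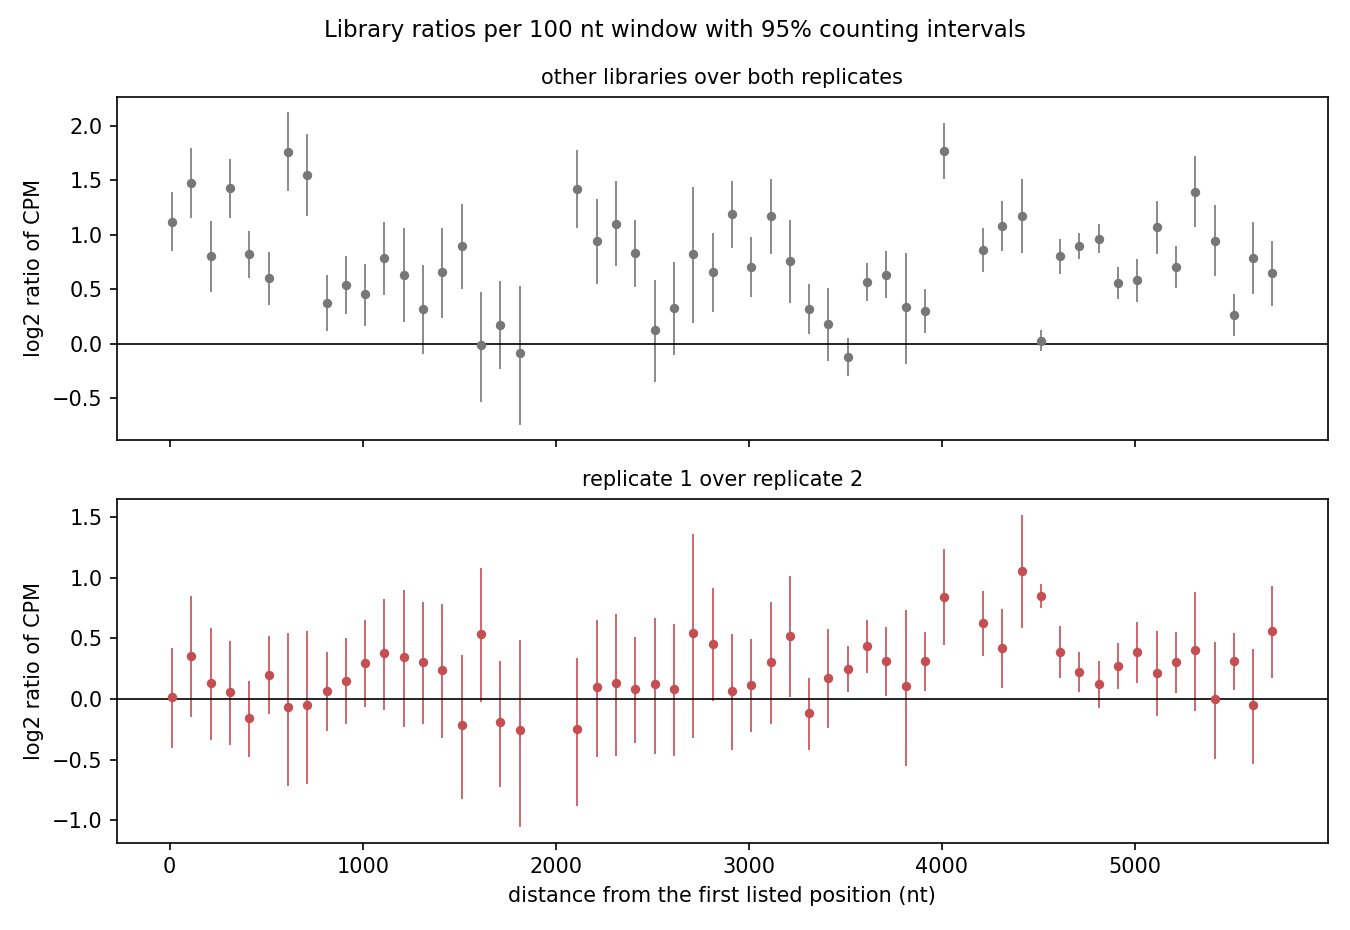
Log2 ratio of CPM per 100 nt window for the windows with at least 50 cDNAs in both replicates together (points, with 95% exact counting intervals), other libraries over both replicates above and replicate 1 over replicate 2 below. The upper points lie above 0 for 52 of 55 windows, while the densest window stands at 0.03, and the lower points are highest around the densest window.

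The replicate difference was largest at the deepest positions, in the copy and outside it, but did not climb evenly with depth in the copy. Positions were grouped by their cDNAs in the other libraries, which take no part in the ratio. In the copy the log2 ratio of replicate 1 to replicate 2 was 0.18 (0.02 to 0.34) at positions with 0 cDNAs in the other libraries, 0.26 (0.12 to 0.41) with 1 and 0.15 (0.07 to 0.23) with 2 to 5. It was 0.31 (0.23 to 0.40) with 6 to 10, 0.37 (0.27 to 0.48) with 11 to 20 and 0.81 (0.71 to 0.91) with over 20. The intervals of the first 3 classes overlapped, so no order can be read among them. At all positions outside the copy the 6 classes gave -0.01, 0.08, 0.12, 0.20, 0.37 and 0.73, the last with an interval of 0.67 to 0.79. Of the 51 positions of the copy with over 20 cDNAs in the other libraries, 50 lay in the 3′ stretch. Within that stretch the 6 classes gave 0.33, 0.22, 0.21, 0.35, 0.38 and 0.81. In the 5′ stretch the first 5 classes gave 0.12, 0.29, 0.06, 0.13 and -0.09 and showed no rise with depth. Of these only the class with 1 cDNA had an interval above 0 (0.11 to 0.46), and the class with 11 to 20 held 10 positions. The copy's class with over 20 includes the cluster tops of the densest window, where the ratio of replicate 1 to replicate 2 was 0.85. The classes were not recomputed without that window, so depth and that window were not separated in the copy. The part of depth in the replicate difference was not tested further.

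**Figure D4:**
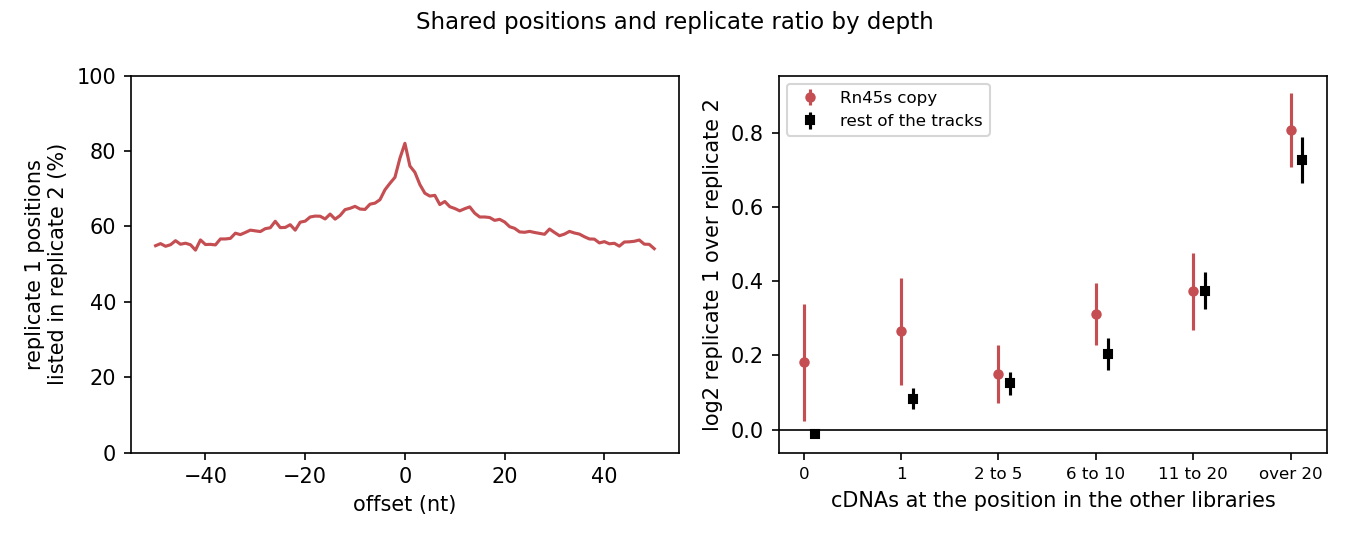
Left, share of replicate 1 positions of the copy (%) that fall on a listed position of replicate 2 when read at an offset of -50 to 50 nt, with its top of 82.1% at 0. Right, log2 ratio of replicate 1 to replicate 2 by the depth of a position in the other libraries (points, with 95% exact counting intervals), for the copy and for the rest of the tracks, both highest in the deepest class at 0.81 and 0.73.

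The other libraries gave the copy a larger share of their cDNAs than either replicate did. Their share was higher than that of both replicates together by 0.65 on the log2 scale (exact interval 0.62 to 0.68), a 1.57-fold difference. It was higher by 0.41 (0.37 to 0.45) than replicate 1 and by 0.75 (0.72 to 0.78) than replicate 2. Of the 55 windows of the copy with at least 50 cDNAs in both replicates together, 52 were higher in the other libraries, with a median log2 ratio of 0.76. Over the 633 such windows of the genome the median was -0.70 and 26.9% were higher. Most windows of the copy and most windows of the genome thus lay on opposite sides of 0. The minimum was set on the replicates alone, which by itself favours low ratios, so the genome median is no neutral reference. The other libraries are known only as a sum, carry other library identifiers than the replicates and give no spread, so this difference has no replicate check and cannot be told apart from a difference between preparations.

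The excess of the other libraries was not even along the copy and did not fall steadily with density. Over the 7 segments it ran from 0.53 (0.37 to 0.68) between 39981051 and 39981700, the second sparsest, to 0.89 (0.81 to 0.97) in the first one. In the densest segment it was 0.54 (0.49 to 0.60), in the segment before that 0.55 (0.48 to 0.62), and in the sparsest 0.78 (0.65 to 0.92). It was 0.82 (0.76 to 0.87) in the 5′ stretch and 0.58 (0.54 to 0.62) in the 3′ stretch. In the densest window it was 0.03 (-0.07 to 0.12), and without that window the 3′ stretch stood at 0.70 (0.66 to 0.74). The medians over windows were alike, 0.78 for the 33 windows before the step at 39983230 and 0.79 for the 25 after it. Among windows with at least 50 cDNAs in both replicates together the highest excess was 1.77, from 39983901 to 39984000, with 254 CPM in the other libraries, against 110 in replicate 1 and 61.7 in replicate 2. The window from 39980501 to 39980600 followed at 1.76, with 129 CPM against 36.8 and 38.6. The lowest was -0.12 (-0.29 to 0.05), from 39983401 to 39983500. At the 10 named positions the log2 ratios of the other libraries to both replicates were -1.27 to -0.22. Those positions were chosen for high values in the replicates, which by itself favours low ratios.

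Among the 10 strongest 10 kb windows by CPM in the lower replicate, that of the copy alone had a higher share in the other libraries than in the replicates. These windows were chosen for high values in the replicates, which by itself favours low ratios. The other 9 windows, which include both mitochondrial plus-strand windows and 3 on chromosome 19, had log2 ratios of -1.54 to -0.08, and that of the copy was 0.64 (0.61 to 0.68). The ratio of replicate 1 to replicate 2 was 0.35 (0.30 to 0.39) for the copy and 0.01 to 0.60 for the others. Only the window on chromosome 9 from 78020001, minus strand, was higher than the copy, at 0.60 (0.52 to 0.69), and it also had the most cDNAs per position, 15.1 in replicate 1 and 25.7 in replicate 2. In the copy's window these were 3.34 and 5.01, its deepest position held 1.29% of the cDNAs in replicate 1 and 0.733% in replicate 2, and replicate 2 listed 52.3% of the nucleotides in the stretch with the central 95% of its cDNAs in the sum track. The other 9 windows ranged between 0.606% and 5.77%, 0.369% and 4.20%, and 21.0% and 100% in these measures. The mitochondrial window from 1 to 10000 held 3.01 and 4.44 cDNAs per position, and its replicate ratio of 0.28 (0.24 to 0.33) was the nearest to that of the copy. These intervals cover counting error only.

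**Figure D5:**
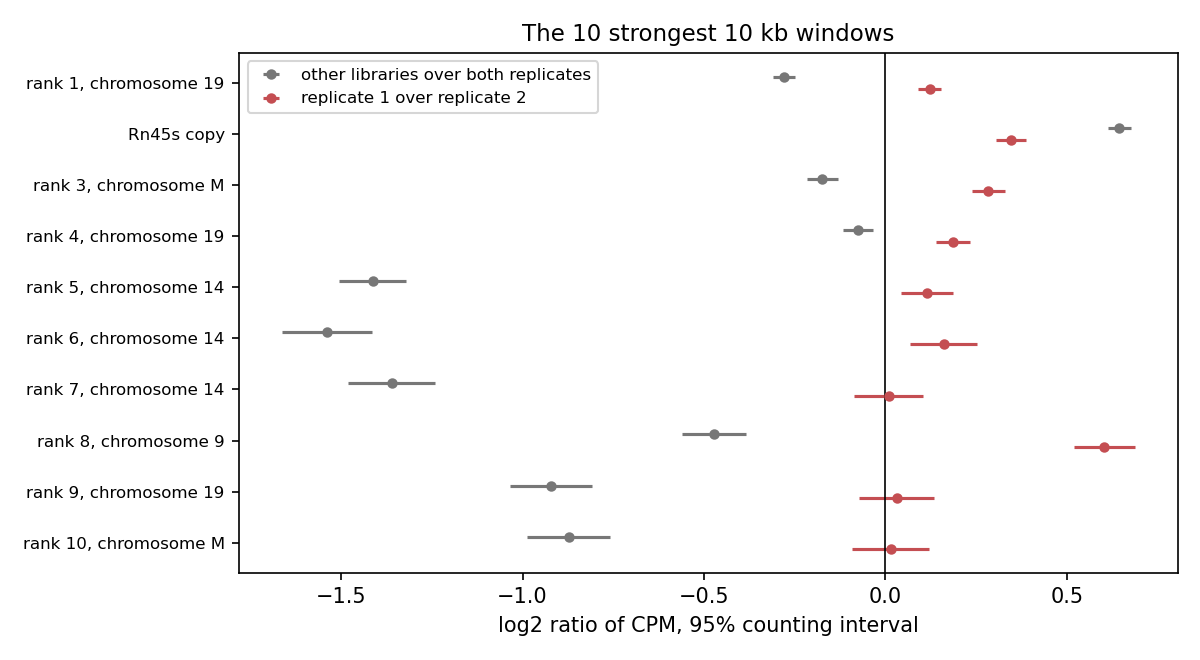
Log2 ratios of CPM (points, with 95% exact counting intervals) for the 10 strongest 10 kb windows by CPM in the lower replicate, ranked from the top. Other libraries over both replicates are in grey and replicate 1 over replicate 2 in red. The choice by the replicates by itself favours low grey points. The grey point of the Rn45s copy stands at 0.64, and those of the other 9 windows lie between -1.54 and -0.08.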

How the data were processed

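The authors' deposited tracks hold, for each listed nucleotide, a signed score: its size is the number of cDNAs and its sign the strand, with no scaling to library size. Per the file headers these are cDNA hits on mm9, annotated by Ensembl 59. Bowtie 0.10.1 is named, per the submitters' processing notes. The collapse of duplicate cDNAs, the handling of reads with several matches and any filter on positions are not given in the sources used here. The headers of both replicates carry 1 library identifier and the same replicate number. The merged track is a sum over 5 libraries, and the replicates were subtracted from it, position by position.

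Positions were numbered from 1. CPM are cDNAs per 1000000 of the library. Shares have Wilson intervals and ratios exact binomial intervals at 95%, the limit of a 0 is 3 cDNAs, and all cover counting error only. Every 100 nt window of the genome and strand with at least 50 cDNAs, and 50 in the rest of its 10 kb window, entered Fisher's exact test. A step is the largest jump within 300 nt, on a 10 nt grid, of at least 1 on the log2 scale. The members and lists were chosen with earlier results of these data known. Named were every step, the 5 highest and 5 lowest windows and the 10 highest positions by the lower replicate, and further windows for their ratios, after their values were seen, as were the division into stretches, the clusters and the depth classes. Tested on simulated data, in 10 draws with 200 changed windows in all, the procedure called 96 of 100 windows with a 4-fold change, 45 of 100 with a 2-fold change and 20 of 5440 unchanged ones. Python 3.11.15 and SciPy 1.17.1 were used.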

Additional observations from a re-analysis of the deposited data

How the results depend on the processing

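The 3 ratios recomputed kept their direction under the alternatives run for each, while their size did not always hold. The ratios of single windows, segments and depth classes were not recomputed, nor those of the stretches other than without the densest window. The log2 ratio of replicate 1 to replicate 2 was 0.91 when positions replaced cDNAs, 0.50 with each position capped at 10 cDNAs and, in a choice made after seeing the data, 0.25 without the densest window. Other totals and the whole 10 kb window gave 0.34 to 0.35. The log2 ratio of the other libraries to the replicates was 0.41 and 0.75 with 1 replicate left out, 0.88 with the cap and 0.74 without the densest window. Counting positions or capping them takes more from the deeper side of a ratio where listing is dense, as in the copy. The deeper side was replicate 2 in the first ratio and both replicates in the second, so these settings by themselves favour higher ratios. The kept direction under them is therefore not a separate check. The densest segment exceeded the sparsest by 1.49 in positions and by 3.04 with the cap. Steps numbered 5 when positions were counted, against 8, and 6 to 10 under the other settings. Windows of the copy whose share differed numbered 4 with a minimum of 100 cDNAs, where 7.72% of 272 windows passed, 2 of 94 in windows of 50 nt, where 2.50% of 561 windows passed, and 1 otherwise. Recurrence was 95.3% within 1 nt and 94.8% for positions with at least 2 cDNAs. The cause of these shifts was not tested. Replicate 2 was 2.76 times as deep as replicate 1, and the lower depth of replicate 1 limits the intervals of single windows. No paired analysis was possible because the series gives a single iCLIP group here and the heart samples are not analysed.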

Other observations

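The other libraries listed 3275 positions in the copy, of which 708, or 21.6%, were in neither replicate. Nucleotide by nucleotide the replicates were less alike than by window: across the 3399 positions that 1 or both of them listed, r was 0.63 (Pearson) and rho 0.47 (Spearman), against 0.98 and 0.96 over the 59 windows. Both are descriptions across positions of 1 RNA. The 10 highest positions by the lower replicate differ in their replicate ratio, with log2 values of replicate 1 over replicate 2 of 0.11 at 39984418 and 1.55 at 39984455, which lie in different clusters of the same window.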
